A study of Mus musculus with 2 samples.

Results

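The 10 genes described here encode surface or secreted ligands that co-stimulate or inhibit T cells: Cd80, Cd86, Icosl, Cd274, Pdcd1lg2, Cd276, Vtcn1, Cd200, Pvr and Lgals9. They were chosen by name from a list of such ligands, and all 10 were found among the 23411 genes of the series. Cd200 and Pvr belong to other immunoglobulin families and Lgals9 to the lectins, while the rest are B7 family genes. Poly-A RNA was sequenced from B6 mouse medullary thymic epithelial cells (mTEC), which flow cytometry had split by MHC class II into MHC-II high and MHC-II low cells. No genetic change or treatment is named in the labels, and no age is given. Both fractions came from 1 pool of 3 mice, with 1 library per fraction. Each difference is therefore between 2 libraries, with no replicate check and no p-value.

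mTEC present peripheral tissue antigens to thymocytes, and the mature MHC class II high cells carry the regulator Aire. A thymocyte that recognises its antigen receives a second signal when CD80 or CD86 on the presenting cell engages CD28, and this signal takes part in deletion and in the formation of regulatory T cells. CTLA-4 binds the same pair of ligands and limits that signal. ICOS ligand, encoded by Icosl, engages ICOS. PD-L1 (Cd274) and PD-L2 (Pdcd1lg2) bind the inhibitory receptor PD-1, and the other members signal through further, mostly inhibitory, receptors.

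Reads on genes numbered 138368535 for MHC-II high and 56077479 for MHC-II low cells. Values are read counts scaled to the library total as counts per 1000000 (CPM), with the totals adjusted by the TMM method. The ratio of high to low carries an exact 95% interval of the reads, which covers counting error only. A gene was called higher or lower when this whole interval lay beyond 2-fold, among the 17438 genes with a mean of at least 1 CPM. As a check of the sort, 4 of 5 mature mTEC genes were higher in MHC-II high cells and 0 lower, against 14.5% and 10.9% of all genes. Aire, picked for this check, was at 571 and 21.0 CPM in MHC-II high and low cells, Cd74 at 9289 and 4454 CPM, and H2-Aa at 4485 and 2240 CPM. H2-Aa was the gene not called, as its interval (1.99 to 2.01) spanned 2-fold. Without the TMM adjustment it was called higher, at a log2 ratio of 1.29. The epithelial gene Epcam, also picked, was at 621 and 586 CPM. In sorted pools, fewer cells of a type and less RNA per cell cannot be told apart.

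All 10 ligand genes passed the minimum in both libraries. MHC-II high cells had higher Cd80, Cd86, Icosl and Cd274 and lower Lgals9. The other 5 were not called. Thus 4 of 10 were higher, against 14.5% of all genes compared, and 1 of 10 lower, against 10.9%. The median log2 ratio of the 10 genes was -0.04, beside -0.01 for all genes compared, so the ligands lay on both sides of equality.

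**Figure D1:**
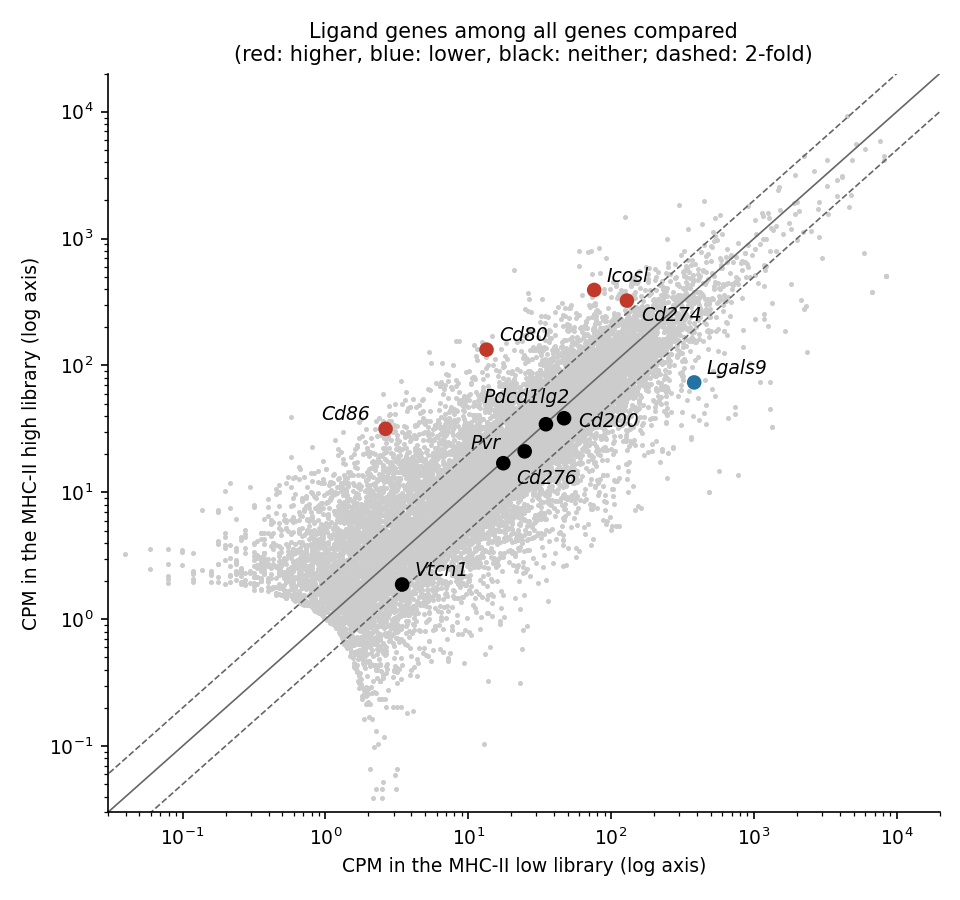
CPM of each gene in the MHC-II low library (x) against the MHC-II high library (y), both on log axes, for the 17438 genes compared (grey) and the 10 ligand genes (named points). The solid line marks equal values and the dashed lines 2-fold; Cd80, Cd86, Icosl and Cd274 lie above the upper dashed line and Lgals9 below the lower one.

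The costimulatory genes Cd80, Cd86 and Icosl had the highest ratios of MHC-II high over low among the 10 genes. Cd80 had 20376 reads (133.3 CPM) in the high and 682 reads (13.4 CPM) in the low library. It was 9.92-fold higher in the high library (interval 9.20 to 10.7), with a log2 ratio above that of 98.5% of all genes compared. Cd86, the other CD28 ligand gene, had 4842 reads (31.7 CPM) and 134 reads (2.64 CPM). Its 12.0-fold ratio (10.1 to 14.4) was above that of 99.0% of genes and its interval overlapped that of Cd80. Icosl, the ICOS ligand gene, had 60187 reads (394 CPM) and 3869 reads (76.2 CPM), and was 5.17-fold higher (5.0 to 5.34). All 3 genes were thus high in the same library, with Icosl the least changed of them.

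Levels between genes were compared per transcript length, as reads per 1000 bases per 1000000 TMM-scaled reads. On this scale the level of Cd80 was 78.4 in the high library and that of Cd86 was 12.5. In the low library the levels were 7.90 and 1.04. The ratio of Cd80 to Cd86 within a library does not depend on the read total, and it was 6.29 in the high (interval 6.09 to 6.49) and 7.60 in the low library (6.31 to 9.22). The ratio was 1.21 times as large in the low library (1.0 to 1.47), a small shift beside the fold of each gene. The ratio of Icosl to Cd80 was 1.83 in the high (1.80 to 1.86) and 3.51 in the low library (3.23 to 3.81).

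By the distance of their log2 levels in both libraries, the genes nearest to Cd80 among protein-coding genes compared were Calca, Klk1b26 and Psors1c2. Their distances from Cd80 on the log2 scale were 0.11, 0.12 and 0.23. Calca encodes the hormone calcitonin and Klk1b26 a kallikrein protease. Klk1b26 belongs to a family of near-identical copies, so its reads are uncertain. The genes nearest to Cd86 were Avp, Atp8b4 and Oas1d, at 0.13, 0.14 and 0.15. Avp, the vasopressin gene, had 929 against 29 reads. Likeness over 2 libraries describes these libraries only.

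Markers of other antigen-presenting cells, which also carry CD80 and CD86, were read in both libraries. Of 12 dendritic cell and macrophage markers matched, 10 passed the minimum, with a median log2 ratio of 1.22. Among these 10, 5 were higher and 0 lower in MHC-II high cells, against 14.5% and 10.9% of all genes compared. None of the 12 was at 0 in either library. Their summed level was 531 against 169 CPM, and Lyz2 made up 362 and 74.0 CPM of it. Picked after their values were seen, the macrophage receptor gene Csf1r was at 20.5 and 4.69 CPM, the dendritic cell growth factor receptor gene Flt3 at 6.65 and 1.30 CPM, and the integrin gene Itgax (CD11c) at 1.90 and 3.19 CPM. B cell markers summed to 34.1 and 30.4 CPM over 6 genes, none at 0, with 2 of the 5 compared higher and 0 lower. Of these, Ms4a1, named after its value was seen, at 3.81 and 0.55 CPM, was compared only because of its value in MHC-II high cells. The list's most read genes were not called, and Cd79b was at 20.0 and 20.2 CPM and Ebf1 at 4.06 and 6.30 CPM. The part of these cells in the values of Cd80, Cd86 and Icosl was not tested.

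**Figure D2:**
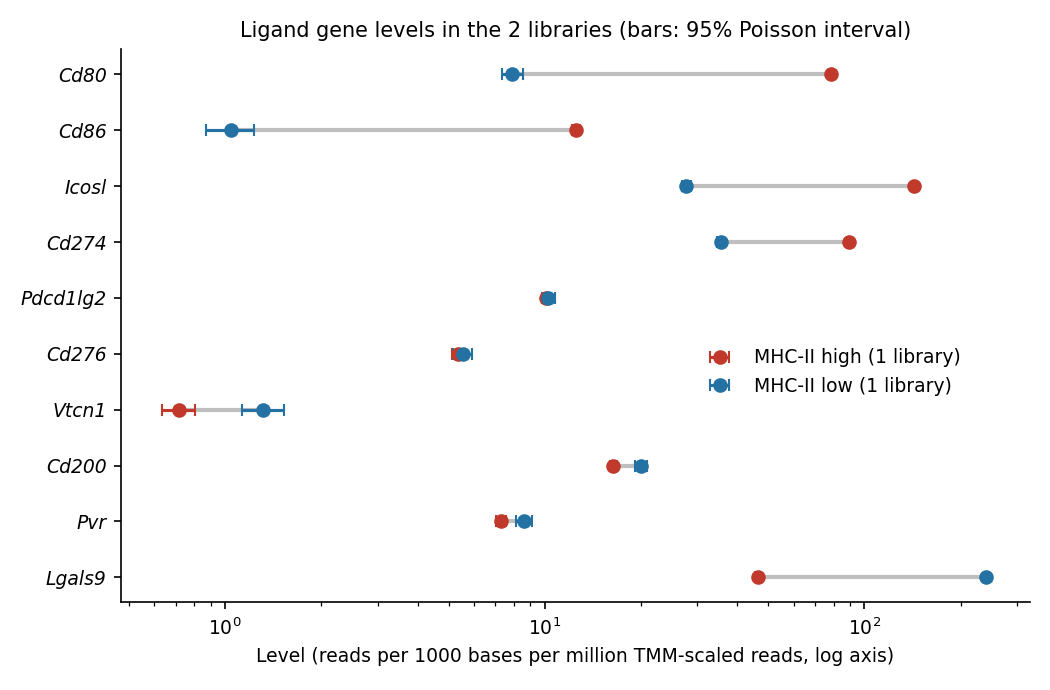
Level of each ligand gene in the MHC-II high (red) and MHC-II low (blue) library, as reads per 1000 bases per 1000000 TMM-scaled reads on a log axis, with 95% Poisson intervals where they exceed the point. Icosl is highest in the high library, at 143.3, and Lgals9 in the low library, at 240.9; for Pdcd1lg2 and for Cd276 the red and blue points nearly coincide.

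The PD-1 ligand genes Cd274 and Pdcd1lg2 differed from each other. Cd274 had 49613 reads (325 CPM) in the high and 6554 reads (129 CPM) in the low library, and was 2.51-fold higher (interval 2.45 to 2.58). Pdcd1lg2 had 5262 reads (34.4 CPM) and 1777 reads (35.0 CPM), a ratio of 0.98 (0.93 to 1.04). The level of Cd274 per length was 8.85 times that of Pdcd1lg2 in the high library (8.60 to 9.11) and 3.46 times in the low one (3.28 to 3.65). That ratio was 2.56-fold larger in the high library (2.41 to 2.71), a value that no read total changes. Cd274 was also 1.14 times the level of Cd80 in the high (1.12 to 1.16) and 4.49 times in the low library (4.15 to 4.87). Cd274 thus exceeded Cd80 by a wider margin in the MHC-II low library.

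Cd274 and Pdcd1lg2 are neighbours on chromosome 19. The promoter table from RefSeq (build GRCm38.p6, not the build of the reads) held 8 of the 10 genes, without Cd86 and Pvr. The 250 bases before the start are shown for these 2 neighbours, which differed in ratio and lie side by side, and for Lgals9, the member that was lower. Capitals mark any match, on either strand, to GAAANNGAA (an interferon-stimulated element core), to TTCNNNGAA (the core of a gamma-activated site) or to the kappa B consensus.
Cd274, chr19:29367188-29367437, plus strand: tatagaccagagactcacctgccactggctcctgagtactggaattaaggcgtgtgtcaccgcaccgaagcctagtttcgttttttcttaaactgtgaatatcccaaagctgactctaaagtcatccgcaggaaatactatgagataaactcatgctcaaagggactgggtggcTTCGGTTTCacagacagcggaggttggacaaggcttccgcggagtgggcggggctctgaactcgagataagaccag
Pdcd1lg2, chr19:29410669-29410918, plus strand: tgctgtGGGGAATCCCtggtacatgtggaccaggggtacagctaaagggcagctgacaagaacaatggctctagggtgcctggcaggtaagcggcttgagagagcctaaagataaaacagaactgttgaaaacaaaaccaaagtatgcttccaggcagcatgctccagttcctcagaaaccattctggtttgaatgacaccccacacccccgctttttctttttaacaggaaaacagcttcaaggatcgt
Lgals9, chr11:78984925-78985174, minus strand: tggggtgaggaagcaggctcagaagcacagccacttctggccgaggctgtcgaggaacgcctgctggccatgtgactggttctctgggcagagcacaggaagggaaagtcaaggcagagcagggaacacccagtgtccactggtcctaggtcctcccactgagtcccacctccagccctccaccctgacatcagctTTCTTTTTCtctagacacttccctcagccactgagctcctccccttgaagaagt

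Cd274 and Lgals9 each held 1 match to GAAANNGAA, on the opposite strand, TTCGGTTTC at 76 to 68 bases and TTCTTTTTC at 54 to 46 bases before the start. Pdcd1lg2 held 1 kappa B match, GGGGAATCCC, at 244 to 235 bases before it. None of the 8 promoters had a match to TTCNNNGAA. Over all 32851 promoters of the table, 7.13% held GAAANNGAA, 3.90% the kappa B consensus and 7.02% TTCNNNGAA in the same window. The GC box GGGCGG was in 4 of the 8, Icosl, Cd274, Cd276 and Cd200, and in 32.7% of all promoters. For Cd276 alone of the 8, the bases after the start were not found in a GENCODE vM21 transcript. Cd80 and Vtcn1 held none of these letters in this window. Sites for GAAANNGAA and TTCNNNGAA can share bases, and a match describes letters only.

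Cd276 (B7-H3) and Vtcn1 (B7-H4) are the more distant B7 members, known mainly as inhibitory. Cd276 had 2594 reads (17.0 CPM) in the high and 894 reads (17.6 CPM) in the low library, a ratio of 0.96 (interval 0.89 to 1.04). Vtcn1 was the least abundant member, with 287 reads (1.88 CPM) and 175 reads (3.45 CPM). Its value was 1.84 times as large in the low library (1.51 to 2.22), an interval that spans 2-fold, and its log2 ratio turned to 0.13 with the RPKM totals given below. Thus the sign for Cd276 was within counting error and Vtcn1 was not called.

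Cd200, whose receptor restrains myeloid cells, and Pvr, the poliovirus receptor gene whose product engages the activating receptor CD226 and the inhibitory TIGIT, were close in both libraries. Cd200 had 5866 reads (38.4 CPM) in the high and 2381 reads (46.9 CPM) in the low library, a ratio of 0.82 (0.78 to 0.86). Pvr had 3217 reads (21.0 CPM) and 1262 reads (24.9 CPM), a ratio of 0.85 (0.79 to 0.90). Both intervals lay below 1, but the values turned to log2 ratios of 0.71 for Cd200 and 0.76 for Pvr when scaled to the totals that the deposited RPKM imply.

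Lgals9 encodes galectin-9, a lectin with carbohydrate-binding domains joined by a linker, which binds TIM-3 among other glycoproteins. It was the member that stood opposite to the CD28 ligand genes. It had 11241 reads (73.6 CPM) in the high and 19395 reads (382 CPM) in the low library, and was 5.19-fold higher in the low one (interval 5.07 to 5.32). Only 2.62% of the genes compared had a lower log2 ratio. Its level per length was 0.52 times that of Cd274 in the high (0.51 to 0.53) and 6.79 times in the low library (6.60 to 6.98). The ratio of Lgals9 to Icosl was 0.32 (0.32 to 0.33) and 8.69 (8.39 to 8.99), a difference of 26.8-fold between the libraries (25.8 to 27.9).

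Lgals9 was also the only member of the 10 with more than 1 listed transcript. Its long transcript of 1586 bases and its short one of 1493 bases gave log2 ratios of -2.38 and -2.39. They differ by 93 bases, and the GENCODE vM21 models of the same accessions differ internally by 1 coding exon of 93 bases. This exon, number 5 of 11 in the long form, adds 31 codons in frame. It is shown because reads on it separate the forms.
Lgals9 exon 5, GRCm38 chr11:78969714-78969806, minus strand: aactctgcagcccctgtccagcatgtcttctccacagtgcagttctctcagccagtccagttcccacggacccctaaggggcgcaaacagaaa

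In the high library 155 reads of 11241 on the long transcript were not on the short one, 1.38% (exact Clopper-Pearson interval 1.17 to 1.61%). In the low library they were 132 of 19395, 0.68% (0.57 to 0.81%). The odds of such a read were 2.04 times as high in the MHC-II high library (1.61 to 2.60), and no read total enters this value. Per base, these reads were at 22.4% of the short transcript's average density in MHC-II high and 11.0% in MHC-II low cells. Scaled by library total, MHC-II low cells had 2.56-fold more of them (2.02 to 3.26), less than the 5.19-fold of the whole transcript. Reads on the long transcript alone were thus a larger share in MHC-II high cells. Any read counted on both transcripts drops out of this difference, so the 2 densities do not measure how often the exon was used. How reads that cross into this exon were counted is not stated in the sources used here, and the part of counting in this value was not tested.

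Markers of several other cells or states were higher in the same library as Lgals9. For the counts that follow, the shares over all genes compared were 14.5% higher and 10.9% lower in MHC-II high cells. Of the immature and basal mTEC list, 4 of 5 genes were lower in MHC-II high cells, among them Krt5 at 768 against 5863 CPM and Ccl21a at 382 against 6689 CPM. Tuft-like genes were lower in 4 of 5 cases, with summed levels of 406.5 against 1455 CPM, Avil being at 130.1 and 563 CPM and Trpm5 at 117 and 407 CPM. With the RPKM totals Trpm5 was no longer called, at a log2 ratio of -0.80. The shift of those totals would also bring Dclk1, at -1.93 and named after its value was seen, inside 2-fold. The marker counts here hold for TMM totals. Endothelial genes were lower in 6 of 6, among them Emcn, which was compared only because of its value in MHC-II low cells (0.10 and 12.8 CPM). Their sum was 62.1 against 434 CPM, with Vwf at 32.7 and 142 and Pecam1 at 7.60 and 163 CPM. Tek, named after its value was seen, had a log2 ratio of -1.22. The shift of unscaled or of RPKM totals would bring Tek inside 2-fold. Fibroblast and mural genes were lower in 4 of 6, summing to 174 and 960.5 CPM, with Dcn at 57.2 and 535 and Col3a1 at 25.4 and 208 CPM. The 2 not called were named after their values were seen. Of these, Pdgfrb went the other way, at 40.8 and 23.3 CPM, and Col1a1 was at 37.7 and 60.4 CPM. Of erythroid genes 2 of the 3 compared were lower, Hba-a1 being at 32.8 and 1342 CPM and Hbb-bs at 13.7 and 772 CPM. Both have near-identical copies, so their reads are uncertain. None of these markers was at 0 in either library. The thymic epithelium list did not share this direction, with 1 of 5 genes higher and 0 lower in MHC-II high cells. The higher gene was Foxn1, named after its value was seen, at 112 and 34.5 CPM, while Krt8 was at 1569 and 1955 CPM and Krt18 at 1201 and 1827 CPM. The part of these cells in the value of Lgals9, Cd200 or Vtcn1 was not tested.

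In the MHC-II high library, the order of levels per length was Icosl (143.3), Cd274 (89.2), Cd80 (78.4), Lgals9 (46.4), Cd200 (16.4), Cd86 (12.5), Pdcd1lg2 (10.1), Pvr (7.29), Cd276 (5.33) and Vtcn1 (0.72). No 2 neighbours in that order had overlapping Poisson intervals. In the MHC-II low library it was Lgals9 (240.9), Cd274 (35.5), Icosl (27.7), Cd200 (20.0), Pdcd1lg2 (10.2), Pvr (8.61), Cd80 (7.90), Cd276 (5.53), Vtcn1 (1.31) and Cd86 (1.04). There the intervals of Pvr and Cd80 overlapped, as did those of Vtcn1 and Cd86. Cd86 thus stood sixth in the high library and last in the low one.

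The ratios depend on the read total used, which moves every gene alike. Unscaled totals moved the median log2 ratio of all genes up by 0.29 and the totals behind the deposited RPKM by 1.01. The calls of Cd80, Cd86, Icosl, Cd274 and Lgals9 held under both, and Lgals9 was still lower at a log2 ratio of -1.37 with the RPKM totals. The values of Pdcd1lg2, Cd276, Cd200, Pvr and Vtcn1 turned positive with the RPKM totals, at 0.98, 0.95, 0.71, 0.76 and 0.13. Relative to the median of all genes, each kept its place.

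**Figure D3:**
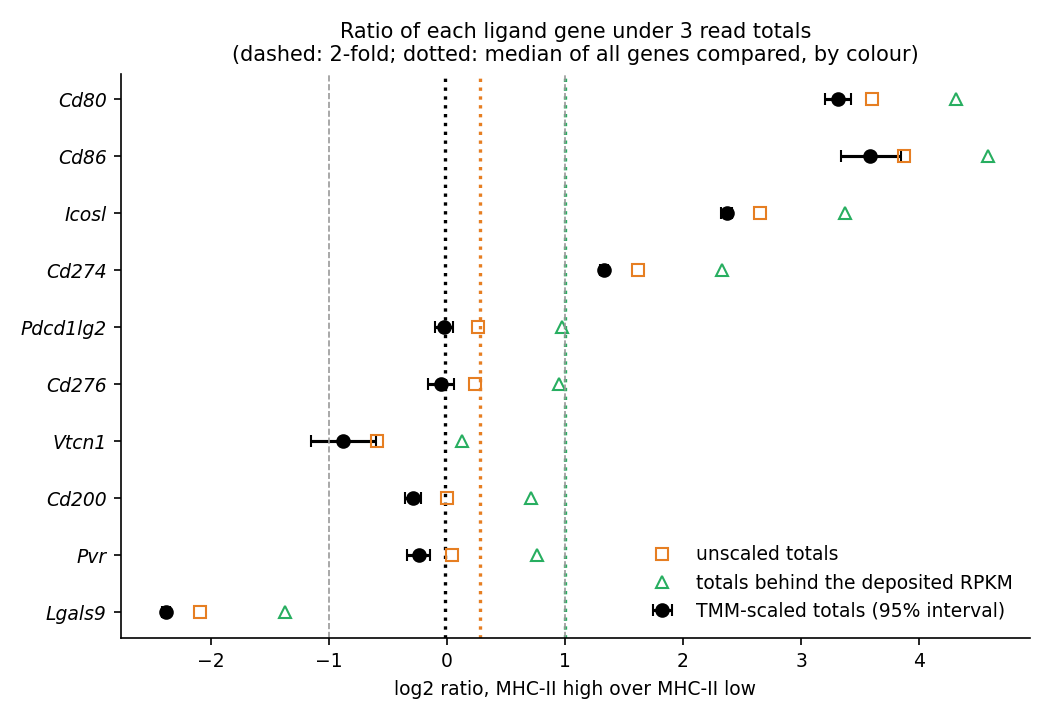
log2 ratio of MHC-II high over MHC-II low for each ligand gene with TMM-scaled totals (black, 95% interval), unscaled totals (orange squares) and the totals behind the deposited RPKM (green triangles). Dashed lines mark 2-fold and dotted lines the median of all genes under each total, the green one lying on the upper 2-fold line; Lgals9 alone stays below the lower 2-fold line under each total.

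The protein-coding genes on either side of each member, in RefSeq gene order, were read as well. Of 10 neighbours of the 5 called members, 1 was called in the same direction as its member, a share near that of all genes (14.5% higher, 10.9% lower) and so no result about neighbours. This was Dnmt3l, a DNA methylation cofactor gene beside Icosl, with 4231 against 139 reads and a 10.1-fold ratio (interval 8.54 to 12.1). Nos2, the inducible nitric oxide synthase gene beside Lgals9, went the opposite way to Lgals9, with 51098 and 1362 reads and a 12.5-fold ratio (11.8 to 13.2). Ksr1, on the other side of Lgals9, was 2.19-fold higher in the high library (2.09 to 2.30). Beside Cd80, Adprh had a log2 ratio of -0.94 and Timmdc1 one of -0.58, and beside Cd86, Casr had 0.12 and Ildr1 0.30. Plgrkt overlaps Cd274 and lay at 0.57. As the libraries do not keep strand, reads in the overlap of Plgrkt and Cd274 cannot be told apart. These neighbours were chosen after the values of the members were seen.

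**Figure D4:**
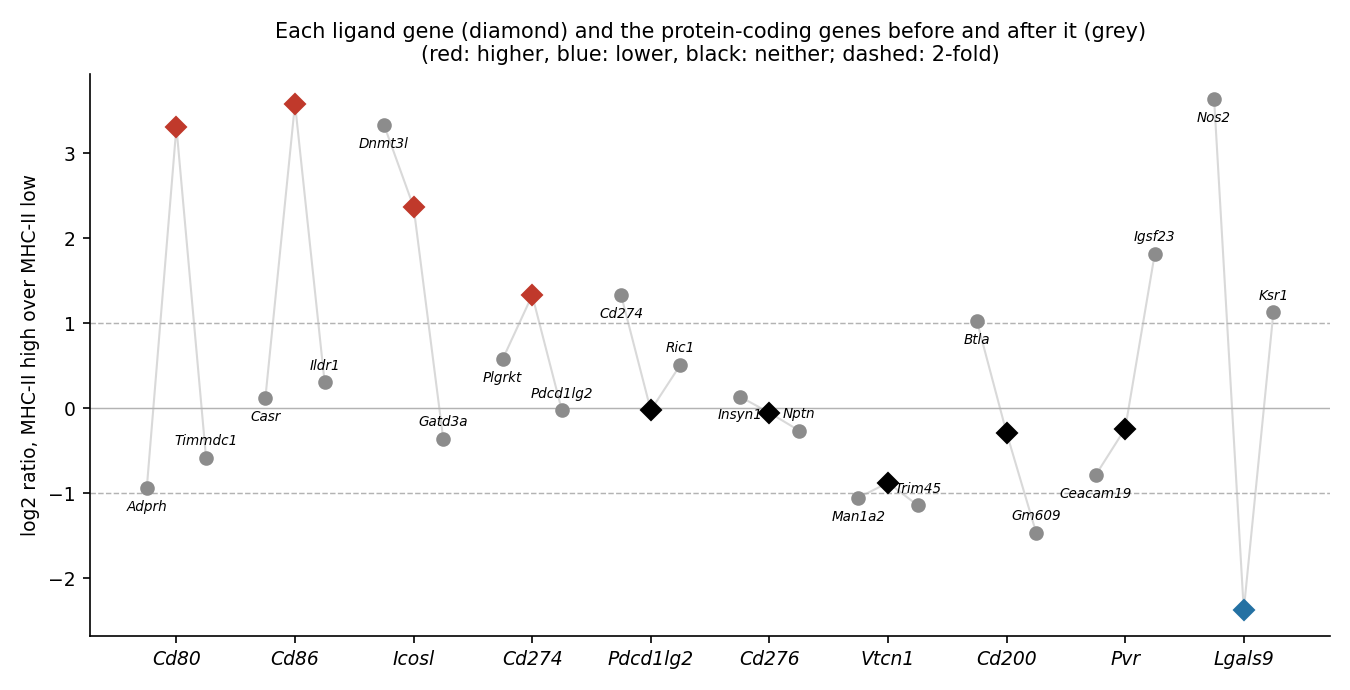
log2 ratio of MHC-II high over MHC-II low for each ligand gene (diamond; red higher, blue lower, black neither) and for the protein-coding genes before and after it on its chromosome (grey points). Dashed lines mark 2-fold. Dnmt3l beside Icosl and Nos2 beside Lgals9 stand highest among the grey points, at 3.34 and 3.64.

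The receptors of these ligands are mainly genes of T cells and other blood cells. Of 10 receptor genes, 7 passed the minimum. In MHC-II high cells 2 were higher and 0 lower, against 14.5% and 10.9% of all genes compared. Ctla4, the CD80 and CD86 receptor that limits costimulation, had 2713 reads (17.8 CPM) in the high and 49 reads (0.97 CPM) in the low library, an 18.4-fold ratio (interval 13.9 to 24.9). Icos, the receptor for ICOS ligand, had 1085 and 45 reads and was 8.01-fold higher (5.94 to 11.0). Ctla4 and Icos, like Havcr2, had under 1 CPM in MHC-II low cells, passed on their high value alone, and their count is no result about receptors. Picked after their values were seen, Cd28 was at 5.0 and 5.65 CPM and Pdcd1, the PD-1 gene, at 1.30 and 1.32 CPM. The highest log2 ratio of the 7 T cell markers was 1.45, that of Cd4. Also picked after their values were seen, Cd4 was higher at 15.3 against 5.59 CPM and Rag1 lower at 5.86 against 18.8 CPM, while Ptprc was at 13.6 and 19.4 CPM and Lck at 11.8 and 18.3 CPM. Their summed level was 56.0 against 77.2 CPM, with no marker at 0. The part of T cells in the Ctla4 and Icos reads was not tested.

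Other B7, butyrophilin, nectin and related ligand genes split. Of 20 listed, 17 passed the minimum, and 5 were higher and 3 lower in MHC-II high cells. The shares over all genes compared were 14.5% higher and 10.9% lower. The median log2 ratio was 0.32. With unscaled totals 6 were higher and 2 lower, and with the RPKM totals 11 and 1. The shares over all genes were then 19.8% and 7.35% with unscaled totals, and 45.2% and 2.94% with the RPKM totals. The 5 higher genes were all butyrophilins, relatives of the B7 family. Btnl1 was 14.5-fold higher (interval 12.3 to 17.2), on 6337 against 145 reads, some of which may be shared with its close paralogs. The genes lower in the high library were Lgals1, which encodes the T cell binding galectin-1, 6.94-fold (6.67 to 7.22), Vsir, the gene of the inhibitory ligand VISTA, 3.85-fold, and Ildr2, 2.45-fold, the last 2 named after their values were seen. The adhesion genes Nectin1 and Nectin4 had the most reads of the list, and their log2 ratios were -0.12 and 0.76. That of Nectin1 was 0.17 with unscaled totals.

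Of 7 TNF family ligands that costimulate T cells, each of them above the minimum level, MHC-II high cells had 4 higher and 0 lower. Their median log2 ratio was 2.51, and the shares called over all genes compared were 14.5% and 10.9%. Tnfsf9 (4-1BB ligand) had 20864 and 682 reads and was 10.2-fold higher (interval 9.42 to 11.0). Its log2 ratio of 3.35 lay beside that of Cd80, 3.31. Tnfsf15 was 5.68-fold higher (5.17 to 6.25) and Tnfsf4, the OX40 ligand gene, 6.39-fold (4.63 to 9.06). Only its level in MHC-II high cells took Tnfsf4 past the minimum. The dendritic cell and macrophage markers given above summed to more CPM in the same library, and their part in these values was not tested.

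Among 18 genes known to regulate the levels of CD80, CD86 or PD-L1, 4 were higher and 3 lower, with a median log2 ratio of 0.55. Over all genes compared, 14.5% were higher and 10.9% lower, so these counts alone are no result about regulators. The lower calls depended on the scaling, as 7 were higher and 0 lower with unscaled totals and 14 and 0 with the RPKM totals. Over all genes, 19.8% were higher and 7.35% lower with unscaled totals, and 45.2% and 2.94% with the RPKM totals. The receptor gene Cd40, which induces CD80 and CD86 on presenting cells, was at 138 and 32 CPM, a 4.30-fold ratio (interval 4.09 to 4.52). Cd40 also counts among the higher mature mTEC genes in the check of the sort. Rel, an NF-kB subunit gene, was 4.50-fold higher (4.20 to 4.82). Nfkb2 and Irf1, the most read genes of the list, lay at log2 ratios of 0.78 and 0.25. The interferon gamma pathway is known to induce PD-L1. Picked after their values were seen, Ifngr1 was at 64.8 and 144 CPM and Jak2 had a log2 ratio of 0.56. Of these 3 scalings, TMM totals alone gave Ifngr1 a call of lower beyond 2-fold. Marchf8, picked in the same way, is a ubiquitin ligase gene whose product can remove CD86 from the surface. It was 2.25-fold lower in MHC-II high cells (2.18 to 2.32), with the same limit on its call.

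**Figure D5:**
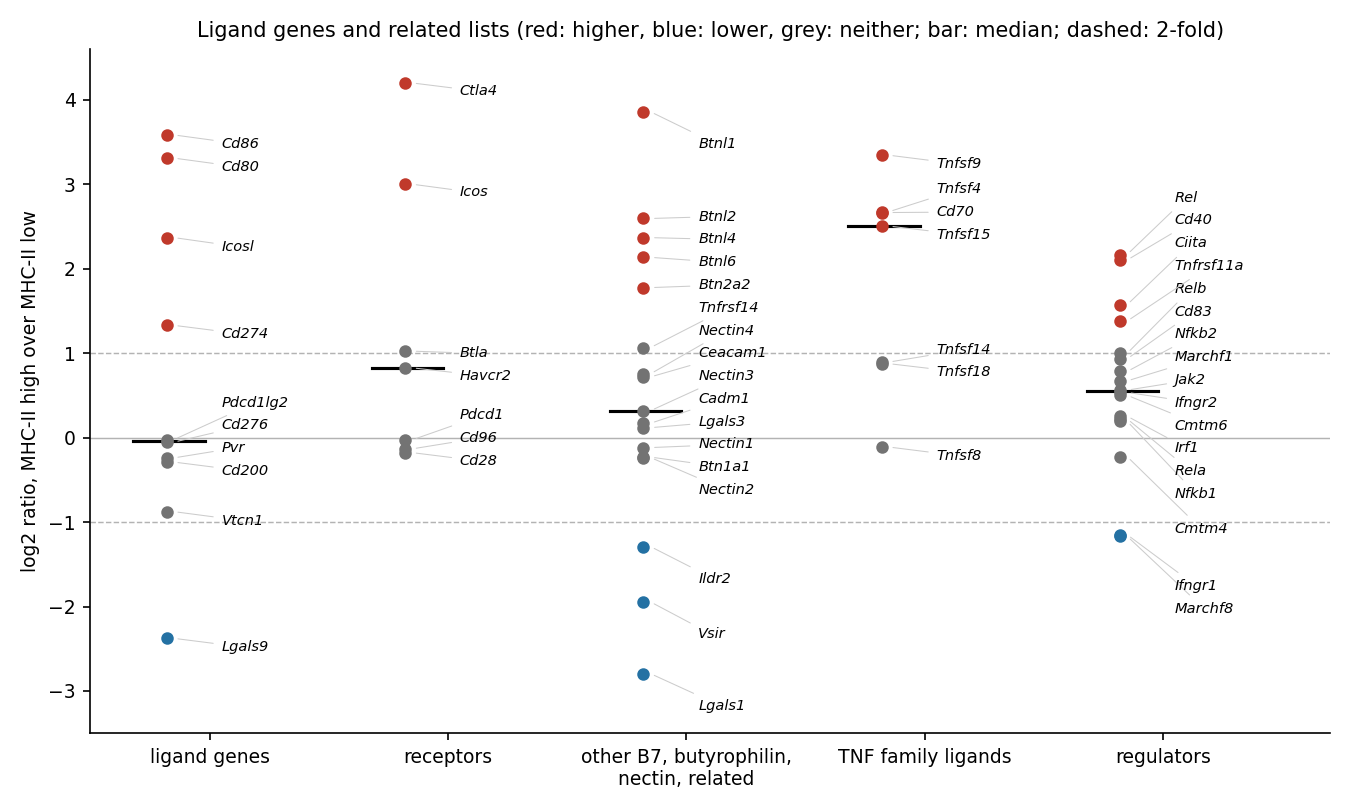
log2 ratio of MHC-II high over MHC-II low for the 10 ligand genes and the genes of 4 related lists that passed the minimum, 1 regulator left out (red higher, blue lower, grey neither, black bar the list median). Dashed lines mark 2-fold; the TNF family ligands have the highest median, 2.51, and the ligand genes one of -0.04.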

How the data were processed

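Poly-A RNA of 2 mTEC fractions from 1 pool of 3 mice was measured with 1 library each (total RNA input 100 ng, 15 PCR cycles, no strand kept), per the labels' protocols and the design text. The submitters' processing notes name CASAVA, Bowtie 1.0.0, bedtools and the build mm9. Tool settings, the annotation and whether mates were counted separately are not given in the sources used here. The deposited tables hold, per the file headers, a read count, a length and an RPKM value for each RefSeq transcript. As computed from the counts, the deposited RPKM use totals of 213854095 and 142330178 reads.

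Stray lines (18 and 36) were left out and 840 copy lines summed. Of 29920 accessions, 29800 in both tables with equal length were used. Names came from RefSeq tables of GRCm38.p6 and GENCODE vM21. A gene took the values of 1 transcript, that with the most reads over both libraries. TMM totals (edgeR 4.0.16, R 4.3.3) were 152834157 and 50769794. Intervals are exact Clopper-Pearson for ratios and Poisson for levels (scipy 1.17.1). PCR reads without molecular identifiers are not independent molecules, so intervals cover counting error only. Among markers, Cd68 was not matched to an accession.

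The members and lists were chosen with earlier results of these data known. Named were all 10 members, 3 genes nearest to Cd80 and to Cd86, per list the 2 genes with the most reads and the 2 with the largest ratio, and per marker list the 2 with the most reads. Some genes of these lists count in the sums, counts and medians but are not reported here by name. Others are said to have been picked after their values were seen. Alternatives were other read totals (DESeq2 1.42.0 size factors among them), minimums, transcript choices and fold limits.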

Additional observations from a re-analysis of the deposited data

How the results depend on the processing

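No paired analysis was possible because each group has 1 library. No replicate could be left out for the same reason. The 4 members called higher and the 1 called lower stayed so under every total, minimum and transcript choice tried, with 3 exceptions of number: beyond 4-fold 3 members were higher, beyond 1.5-fold 2 were lower, and Vtcn1 did not pass a mean of 5 CPM. Over all genes, 2530 were higher and 1907 lower. With the RPKM totals these were 7232 and 471, beyond 1.5-fold 3973 and 3562, and beyond 4-fold 853 and 571. At a mean of 5 CPM 1652 were higher, and with no minimum 3822 were lower. Of all calls, 57.0% were higher, 72.9% with unscaled and 93.9% with RPKM totals and 42.6% with no minimum. Single genes were compared between settings only for the members and the genes named for most reads or largest ratio. Among these, the following log2 ratios changed sign with the RPKM totals: Pdcd1lg2 to 0.98, Cd276 to 0.95, Vtcn1 to 0.13, Cd200 to 0.71, Pvr to 0.76, Nectin1 to 0.88, Krt8 to 0.69, Krt18 to 0.40, Cd79b to 0.99, Ebf1 to 0.37, Ptprc to 0.48 and Lck to 0.38. With unscaled totals Pdcd1lg2 turned to 0.26, Cd276 to 0.23, Pvr to 0.047, Nectin1 to 0.17 and Cd79b to 0.27. With upper-quartile totals Pdcd1lg2 turned to 0.013 and Cd79b to 0.019. The totals move each gene by a constant, which gives these changes. Other genes named in the text were not compared in this way. The constant of the RPKM totals can turn their sign too, as for Itgax, at a log2 ratio of -0.74 with TMM totals. Among the members, reads were fewest for Vtcn1, with 287 and 175, and for Cd86 in the low library, with 134.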

Other observations

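By name, 8 galectin genes passed the minimum, a group chosen after its values were seen. Lgals9, Lgals1 and Lgals3 among them were already in the lists above. Besides Lgals9 and Lgals1, both lower in MHC-II high cells, Lgals12 was 4.54-fold higher there (interval 4.10 to 5.04), on 5480 against 401 reads, and Lgals2 was 2.83-fold higher (2.49 to 3.22). The other 4 were not called. Lgals3 was at 22.8 and 21.0 CPM, Lgals4, an intestinal galectin gene, at 57.3 and 38.7, Lgals7, of stratified epithelia, at 37.5 and 40.2, and Lgals8 at 73.0 and 104.6. Galectin genes thus lay in both directions, as did all genes compared (14.5% higher, 10.9% lower).

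Of 8 butyrophilin genes with names of the Btn and Btnl series, also chosen after values were seen, 6 passed the minimum. In MHC-II high cells 5 were higher and 0 lower, against 14.5% and 10.9% of all genes compared. All but Btnl10 were in the list of related ligands above, so these 5 are the same genes counted there. Btnl1, Btnl4 and Btnl6, with log2 ratios of 3.86, 2.37 and 2.14, belong to a cluster of similar genes and may share reads. Btn2a2, known to inhibit T cells, was 3.43-fold higher (2.96 to 3.98). Btn1a1, the gene of the milk fat globule butyrophilin, had 308 and 120 reads and a ratio of 0.85 (0.69 to 1.06). Btnl9 and Btnl10 stayed under the minimum.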
